A study of Homo sapiens with 6 samples.

Results

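The ID genes and the feedback arm of BMP and TGF-beta signalling were followed across RMS13, a human alveolar rhabdomyosarcoma cell line, and RMS13-R, a line derived from it with acquired resistance to MAL3-101. The genes were chosen by name: ID1, ID2, ID3, ID4, SMAD6, SMAD7, BMP4, BMPR2, GREM1 and TGFB2, 10 of the 55401 gene names measured. MAL3-101, a synthetic compound, inhibits HSP70 chaperones and was given in the vehicle DMSO. Each of 3 groups had 2 RNA-seq libraries, A and B: vehicle alone in RMS13 (parental DMSO), 10 µM MAL3-101 in RMS13 (parental MAL3-101), and the same dose in RMS13-R (resistant MAL3-101), with 9 h of exposure throughout. RMS13 came from a cell bank, all cells grew in medium with serum, and the labels do not say how the resistant line was made or whether it is a clone. Untreated or vehicle-treated RMS13-R was not analysed here, so in the resistant libraries the line and its drug response cannot be told apart. Nor do the labels say that A and B were separate cultures, so every p-value rests on the spread among these libraries alone, which may be technical.

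BMPs and TGF-betas are secreted ligands that bind pairs of serine/threonine kinase receptors, which phosphorylate SMAD proteins; these enter the nucleus with SMAD4 and switch genes on or off. BMP signalling acts through SMAD1, SMAD5 and SMAD9 and is known for inducing the ID genes and SMAD6, while TGF-beta signalling acts through SMAD2 and SMAD3 and is known for inducing SMAD7. ID proteins carry a helix-loop-helix but no DNA-binding region; they sequester the E proteins that muscle factors such as MYOD1 need as partners, and so hold back myogenic differentiation. SMAD6 and SMAD7 block the receptors and SMADs in return, which makes them feedback inhibitors.

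Levels are in TPM (transcripts per 1000000, a unit scaled by transcript length, so that genes can be compared within a library), given as the mean ± SD of 2 libraries. The unit does not show how many reads lie behind a value, so counting error is unknown, and in bulk RNA a smaller number of expressing cells cannot be told apart from less RNA per cell. Differences are on the log2(TPM + 1) scale with their standard error (SE), which understates changes of genes with low levels; a gene was called higher or lower at a Benjamini-Hochberg adjusted p under 0.05 in limma's moderated test over 15148 genes. All 10 genes passed the filter on low levels, which asked that some group's mean reach 1 TPM.

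Between 13918 and 14334 genes reached 1 TPM in each library. The DMSO pair spread most, with 171 tested genes 2-fold apart between libraries A and B, compared with 67 for parental MAL3-101 and 40 for resistant MAL3-101. Mitochondrial ribosomal RNA took 1.92% and 1.97% of TPM in parental MAL3-101 libraries and between 0.533% and 0.784% in the other 4. Of 12 muscle markers, 11 reached 1 TPM in at least 1 group, with MYOD1 between 484 and 816 TPM. MYF5 was listed at 0 in all 6 libraries. With MAL3-101, resistant cells had 4 of the 11 lower than parental cells and 5 higher, beside 34.8% and 21.3% of all tested genes. Lower were CHRNA1 (-2.60), TNNT2 (-1.34), FGFR4 (-0.96) and MYOD1 (-0.56). Higher were CHRNG (0.92), PAX3 (0.61), DES (0.57), MYOG (0.53) and CDH15 (0.20). MAL3-101 against DMSO in parental cells gave 1 higher and 6 lower, beside 22.6% and 18.2%. Markers of other cell types summed to 33.6 to 51.8 TPM in parental and 142 to 143 TPM in resistant libraries for 7 fibroblast genes, where COL3A1 alone gave 134 and 135 TPM while LUM and THY1 were listed at 0. Endothelial markers, of which 6 of 7 were found, summed to between 1.94 and 3.20 TPM in parental libraries and to 20.2 and 22.0 TPM in resistant ones, where TEK alone gave 18.9 and 20.9 TPM. The 7 leukocyte markers stayed between 0.98 and 2.42 TPM, with PTPRC at 0 in 5 libraries, and the 7 epithelial ones ran from 4.11 to 6.79 TPM in parental and from 0.68 to 0.76 TPM in resistant libraries, with EPCAM at 3.50 TPM or more in each parental one. The part of mitochondrial RNA and of these markers in the results below was not tested.

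Of the 10 genes, 6 were called in parental cells with MAL3-101 against DMSO: SMAD7, BMPR2 and TGFB2 rose while ID1, SMAD6 and BMP4 fell. In that comparison 40.8% of all tested genes were called, 22.6% higher and 18.2% lower. With MAL3-101 in both lines, 6 were lower in resistant cells (ID1, ID2, ID3, SMAD7, BMP4 and TGFB2) and SMAD6 was higher. The background there was 56.1%, with 21.3% of genes higher and 34.8% lower. Against parental DMSO, resistant libraries had ID1, ID2, ID3, SMAD7, BMP4 and TGFB2 lower and BMPR2 higher, beside 50.6% of all genes called, 20.9% higher and 29.7% lower. The libraries of the groups did not overlap for 9, 9 and 7 of the 10 genes in the 3 comparisons, beside 69.8%, 83.4% and 75.8% of all tested genes. The median difference of the 10 genes was 0.03, -0.64 and -0.46 in these comparisons, and that of all tested genes 0.02, -0.10 and -0.06. The 10 genes were chosen with earlier results of these data known, so their counts and medians are not those of an unselected set. Each pair of these comparisons shares 1 group, so their values are given side by side and are not independent.

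The share of higher genes in the background depended on scaling. In parental cells MAL3-101 gave 3429 higher and 2752 lower genes with TPM as deposited (55.5% of calls higher), and 2996 and 3413 (46.7%) after upper-quartile scaling. Against parental MAL3-101, 3228 genes were higher and 5267 lower in resistant cells with TPM as deposited, and 4224 and 4361 after median-ratio scaling. Against DMSO the counts were 3160 and 4502, and 4058 and 3766 after it. Upper-quartile scaling moved the median of all genes from -0.10 to 0.01 between the lines with MAL3-101. No direction of the 10 genes changed under either scaling.

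**Figure D1:**
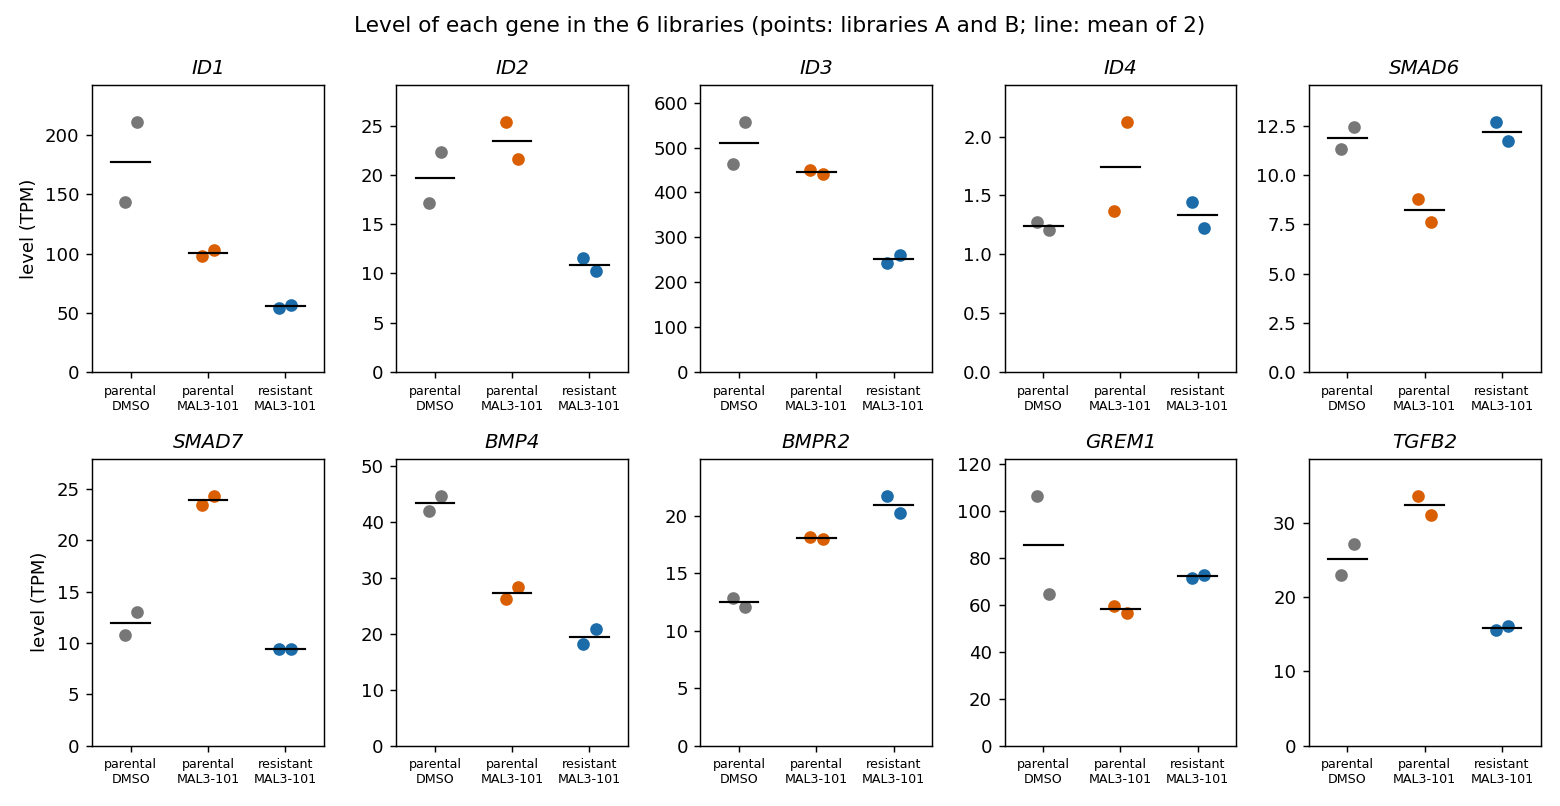
Level of each of the 10 genes in TPM on a linear axis from 0, with 1 point per library (A left, B right) and the mean of the 2 as a line, for parental cells with DMSO, parental cells with MAL3-101 and resistant cells with MAL3-101. ID1, ID2, ID3, SMAD7, BMP4 and TGFB2 have both resistant points below all 4 parental points, and the DMSO points of ID1 and GREM1 lie far apart.

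The promoters of the 3 more abundant ID genes and of both inhibitory SMADs are printed here, since these 5 members are known SMAD targets. Each line gives the 250 bases before the start site in RefSeq on GRCh38.p14, 5′ to 3′ on the gene's strand, with the SMAD motifs GTCTAGAC, CAGAC and GGCGCC on either strand in capitals; the deposited values rest on another build, hg19. ID1 is chr20:31605039-31605288 on the + strand, ID2 chr2:8681806-8682055 on the + strand, ID3 chr1:23559502-23559751 on the - strand, SMAD6 chr15:66701986-66702235 on the + strand, and SMAD7 chr18:48950966-48951215 on the - strand, the first of 3 listed starts.
ID1: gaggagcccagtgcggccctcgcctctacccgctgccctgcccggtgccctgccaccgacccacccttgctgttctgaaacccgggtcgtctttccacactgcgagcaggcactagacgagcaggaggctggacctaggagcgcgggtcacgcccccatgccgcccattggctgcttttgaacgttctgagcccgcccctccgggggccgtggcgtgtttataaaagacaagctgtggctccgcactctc
ID2: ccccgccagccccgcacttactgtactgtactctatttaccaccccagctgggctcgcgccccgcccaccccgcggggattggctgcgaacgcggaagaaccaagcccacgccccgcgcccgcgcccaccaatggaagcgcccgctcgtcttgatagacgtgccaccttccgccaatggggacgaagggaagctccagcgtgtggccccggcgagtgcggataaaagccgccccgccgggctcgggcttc
ID3: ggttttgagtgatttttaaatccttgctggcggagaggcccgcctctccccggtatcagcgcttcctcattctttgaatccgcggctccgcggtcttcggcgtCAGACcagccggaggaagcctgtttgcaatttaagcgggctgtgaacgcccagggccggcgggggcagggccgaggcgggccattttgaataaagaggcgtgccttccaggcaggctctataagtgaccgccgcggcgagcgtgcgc
SMAD6: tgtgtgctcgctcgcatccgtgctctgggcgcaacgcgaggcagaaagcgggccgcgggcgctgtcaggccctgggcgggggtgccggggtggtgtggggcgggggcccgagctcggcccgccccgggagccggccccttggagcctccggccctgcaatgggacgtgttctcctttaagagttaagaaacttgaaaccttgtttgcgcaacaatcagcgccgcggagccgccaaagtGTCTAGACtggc
SMAD7: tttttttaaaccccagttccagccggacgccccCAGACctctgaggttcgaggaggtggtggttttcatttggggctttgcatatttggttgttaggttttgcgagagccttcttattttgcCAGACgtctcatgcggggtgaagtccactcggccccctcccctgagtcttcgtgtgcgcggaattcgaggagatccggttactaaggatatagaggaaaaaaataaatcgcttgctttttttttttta

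SMAD6 carried the palindrome GTCTAGAC 12 to 5 bases before its start, a motif held by 0.202% of the 35116 RefSeq windows of 300 bases (250 before to 50 after a start). None of the other 9 genes held it. The 10 genes have 15 windows, since SMAD7, BMP4 and GREM1 have several listed starts. The shorter SMAD box CAGAC was in 11 of the 15, from 7 genes (ID3, ID4, SMAD7, BMP4, BMPR2, GREM1 and TGFB2), against 45.3% of all windows, and GGCGCC in 3 of the 15 (BMP4, BMPR2 and GREM1) against 19.2%. In ID3 the SMAD box overlapped the CRE core TGACG on the other strand, which 24.6% of all windows hold and which 2 of the 15 held, the other being that of TGFB2. The full CRE TGACGTCA (1.85% of windows), the ATF4 and CHOP element TGATGCAA (0.866%) and the EGR motif GCGTGGGCG (0.795%) had no match in the 15 windows, and the variant GCGGGGGCG (5.07%) matched in 1, that of ID4. TATAAA stood in 4 of the 15 (ID1, ID4, SMAD7 and TGFB2) against 11.5%; in ID1 it overlapped a copy on the opposite strand, and in SMAD7 it lay in a window that is not printed. CCAAT (34.6%) matched in 5 of the 15, of ID1, ID2, ID4, SMAD6 and GREM1. The E-box CANNTG, the site of E protein dimers and the most common motif here at 68.7%, matched in 8 of the 15, with no match in ID1, ID3 or GREM1. These are matches of letters in short windows and say nothing of binding.

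ID3 was the most abundant of the 10 genes and lay at the 98.1 percentile of tested genes by mean level. It stood at 464 and 556 TPM with DMSO, 449.6 and 442 TPM in parental cells with MAL3-101, and 244 and 262 TPM in resistant cells. Both resistant libraries lay below the other 4, and the parental groups did not overlap but came close. Resistant cells had 0.567 times the parental MAL3-101 level, a difference of -0.82 (SE 0.08, adjusted p = 2.03e-04), and -1.005 (SE 0.08, adjusted p = 1.01e-04) against DMSO. In parental cells MAL3-101 against DMSO gave -0.19 (95% interval -0.39 to 0.01, adjusted p = 0.115). It passed when DMSO library A was omitted (-0.32, adjusted p = 0.00138).

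ID1, the ID gene most widely used as a readout of BMP signalling, was ordered, from high to low, DMSO, parental MAL3-101, resistant. Its values were 143.6 and 211 TPM with DMSO, 97.9 and 103 TPM in parental cells with MAL3-101, and 54.2 and 56.6 TPM in resistant cells. No 2 groups overlapped, although the DMSO libraries were 1.47-fold apart. The drop with MAL3-101 in parental cells was to 0.567 times the DMSO level, -0.79 (SE 0.15, adjusted p = 0.00665). That value was -1.06 without DMSO library A and -0.51 without its library B, and it missed the threshold without parental MAL3-101 library A (-0.75, adjusted p = 0.0525). Resistant cells were lower again, with differences of -0.85 (SE 0.15, adjusted p = 0.00282) against parental MAL3-101 and -1.63 (SE 0.15, adjusted p = 1.75e-04) against DMSO.

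ID2 stood at 17.2 and 22.3 TPM with DMSO, 25.3 and 21.6 TPM in parental cells with MAL3-101, and 11.5 and 10.3 TPM in resistant cells. The parental groups overlapped, and resistant libraries lay below both. With MAL3-101 in both lines the resistant level was 0.465 times the parental one, -1.04 (SE 0.14, adjusted p = 6.64e-04), and against DMSO the difference was -0.79 (SE 0.14, adjusted p = 0.00277). The drug's difference in parental cells was 0.25 (95% interval -0.08 to 0.57, adjusted p = 0.193); it passed only without DMSO library B (0.43, adjusted p = 0.0212).

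ID4, the least abundant ID gene, was near the filter. It was at 1.27 and 1.21 TPM with DMSO, 1.37 and 2.12 TPM in parental cells with MAL3-101, and 1.44 and 1.22 TPM in resistant cells. No comparison passed, with intervals of -0.14 to 0.70 for MAL3-101 against DMSO, -0.65 to 0.20 between the lines with MAL3-101, and -0.37 to 0.48 for resistant cells against DMSO. Differences within those intervals could not be told from 0. The 4 ID genes together gave 708.1 ± 116 TPM with DMSO, 571.6 ± 3.64 TPM in parental cells with MAL3-101 and 320.4 ± 13.4 TPM in resistant cells (SD, n = 2 each). ID3 made up between 70.4% and 79.3% of that sum in every library, and ID1 22.9% and 26.7% with DMSO against 17.0% to 18.1% in the 4 MAL3-101 libraries.

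The inhibitory SMADs moved in opposite directions in both comparisons with parental MAL3-101. SMAD7, which blocks TGF-beta and BMP receptors, stood at 10.8 and 13.1 TPM with DMSO, 23.5 and 24.3 TPM in parental cells with MAL3-101, and 9.43 and 9.45 TPM in resistant cells. Parental MAL3-101 libraries were highest and resistant libraries lowest, without overlap. The rise in parental cells was 0.95 (SE 0.10, adjusted p = 6.71e-04), and resistant cells with MAL3-101 had 0.395 times the parental level, -1.25 (SE 0.10, adjusted p = 7.72e-05). Against DMSO, the difference of resistant cells was -0.30 (SE 0.10, adjusted p = 0.0433), a call lost in 11 of 15 alternatives, among them both scalings (adjusted p = 0.127 and 0.101), the omission of either resistant or parental MAL3-101 library, and that of DMSO library B (-0.18, adjusted p = 0.0955).

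SMAD6, the inhibitor that acts mainly on BMP signalling, stood at 11.3 and 12.4 TPM with DMSO, 8.80 and 7.60 TPM in parental cells with MAL3-101, and 12.7 and 11.7 TPM in resistant cells. The parental MAL3-101 pair was lowest, and the DMSO and resistant pairs overlapped. Parental cells with the drug had 0.691 times the DMSO level, -0.49 (SE 0.11, adjusted p = 0.0111), and without parental MAL3-101 library B the difference was -0.39 (adjusted p = 0.0849). Resistant cells were higher than parental cells with the drug by 0.52 (SE 0.11, adjusted p = 0.00521), which missed the threshold without resistant library A (0.47, adjusted p = 0.0527). Between resistant cells and DMSO the difference was 0.04 (95% interval -0.22 to 0.29, adjusted p = 0.799).

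**Figure D2:**
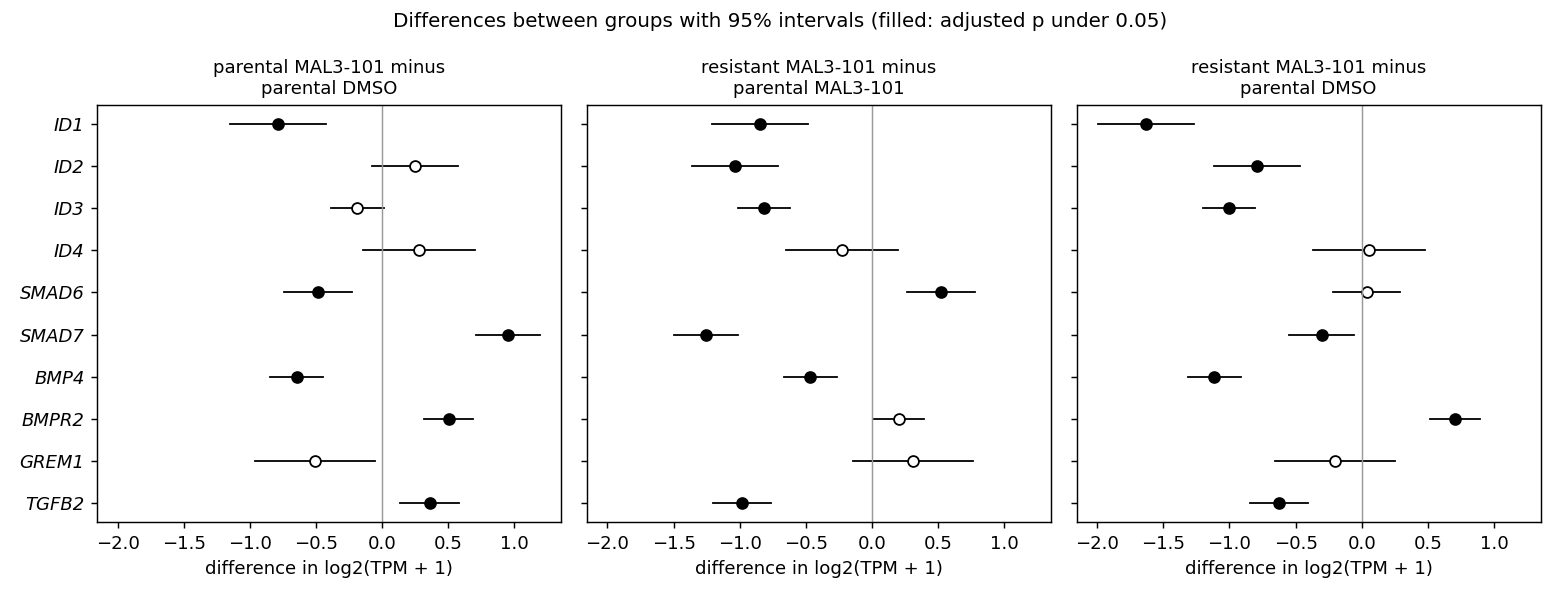
Differences in log2(TPM + 1) between groups for the 10 genes, with 95% intervals from limma over 6 libraries; filled points passed an adjusted p under 0.05. SMAD6 and SMAD7 lie on opposite sides of 0 in the first 2 panels, and ID1 at -0.79, -0.85 and -1.63 is left of 0 in all 3.

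Among the ligands, BMP4, a BMP that induces ID genes in many cell types, was ordered like ID1. It stood at 42.1 and 44.7 TPM with DMSO, 26.3 and 28.4 TPM in parental cells with MAL3-101, and 18.2 and 20.8 TPM in resistant cells, with no overlap between groups. The drug's difference in parental cells was -0.65 (SE 0.09, adjusted p = 0.00131). Resistant cells differed by -0.47 (SE 0.09, adjusted p = 0.00286) from parental MAL3-101. At 0.450 times the DMSO level, they differed by -1.11 (SE 0.09, adjusted p = 6.88e-05) from vehicle. All 3 calls held in each of the 15 alternatives.

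TGFB2, which encodes a TGF-beta ligand, was ordered like SMAD7: 23.0 and 27.1 TPM with DMSO, 33.6 and 31.1 TPM in parental cells with MAL3-101, and 15.6 and 16.2 TPM in resistant cells. Parental MAL3-101 libraries were highest and resistant ones lowest, without overlap. The rise in parental cells was 0.36 (SE 0.09, adjusted p = 0.0205); it missed the threshold with no filter on low levels (adjusted p = 0.0595) or when parental MAL3-101 library A (0.30, adjusted p = 0.139) or its library B (0.41, adjusted p = 0.0643) was omitted. Resistant cells with MAL3-101 had 0.491 times the parental level, -0.98 (SE 0.09, adjusted p = 1.45e-04), and differed from DMSO by -0.62 (SE 0.09, adjusted p = 0.00137).

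BMPR2, a type II receptor for BMPs, was ordered opposite to ID1 by mean level. Its levels were 12.8 and 12.1 TPM with DMSO, 18.1 and 18.0 TPM in parental cells with MAL3-101, and 21.7 and 20.2 TPM in resistant cells, and no groups overlapped. The drug's rise in parental cells was 1.45-fold, 0.50 (SE 0.08, adjusted p = 0.00294), and resistant cells exceeded DMSO 1.68-fold, 0.71 (SE 0.08, adjusted p = 3.85e-04). Between the lines with MAL3-101 the difference was 0.205 (SE 0.08, adjusted p = 0.0629), which passed after median-ratio (0.31, adjusted p = 0.0115) or upper-quartile scaling (0.32, adjusted p = 0.00964), over the compared libraries alone (adjusted p = 0.0208) and when DMSO library A (adjusted p = 0.0235) or library B (adjusted p = 0.0234) was omitted.

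GREM1, a secreted antagonist that binds BMP2, BMP4 and BMP7, had the widest gap between replicates. It stood at 106 and 64.9 TPM in DMSO libraries A and B, 59.6 and 56.8 TPM in parental cells with MAL3-101, and 71.6 and 72.9 TPM in resistant cells. Resistant libraries fell between the DMSO libraries, which were 1.64-fold apart. No comparison passed with all libraries: -0.51 for MAL3-101 against DMSO (95% interval -0.96 to -0.05, adjusted p = 0.0725), 0.31 between the lines with MAL3-101 (-0.15 to 0.76, adjusted p = 0.211), and -0.20 for resistant cells against DMSO (-0.65 to 0.26, adjusted p = 0.420). The calls depended on which DMSO libraries were kept, and the first also on scaling. The first was -0.15 (adjusted p = 0.0352) without DMSO library A and -0.86 (adjusted p = 3.65e-05) without B, and it passed after upper-quartile scaling (adjusted p = 0.0436). The second kept its size and passed without DMSO library A (adjusted p = 4.55e-04), without B (adjusted p = 4.02e-04), or over the compared libraries alone (adjusted p = 4.42e-04). Resistant cells against DMSO gave 0.15 (adjusted p = 0.0327) without DMSO library A and -0.55 (adjusted p = 1.07e-04) without B.

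**Figure D3:**
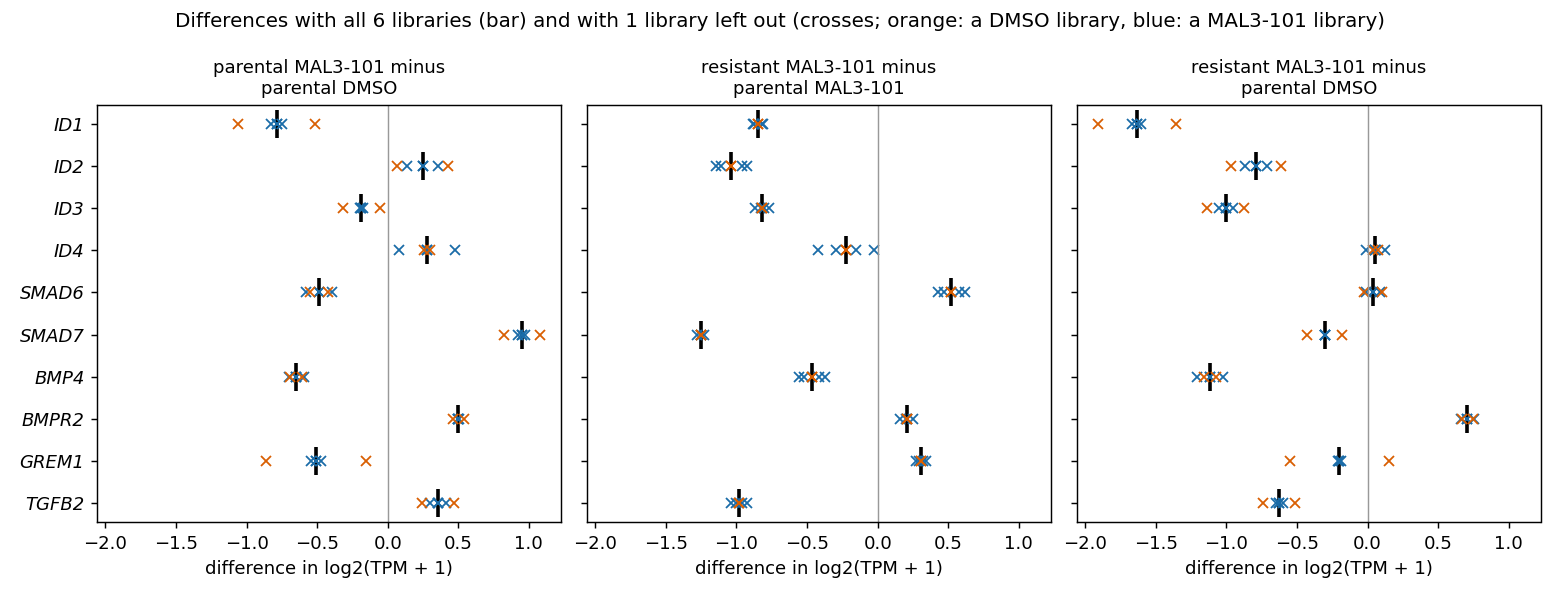
Differences in log2(TPM + 1) of the 10 genes with all 6 libraries (black bar) and with 1 library left out (crosses; orange for a DMSO library, blue for a MAL3-101 library). GREM1 spans -0.55 to 0.15 for resistant cells against DMSO, and ID1 spans -1.06 to -0.51 for parental MAL3-101 against DMSO.

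The rest of the pathway was read from 9 lists ordered by role, with the 10 genes left out. These lists were also chosen with earlier results of these data known. As background to the counts below, 22.6% of all tested genes were higher and 18.2% lower with MAL3-101 in parental cells. Between the lines with MAL3-101, 21.3% were higher and 34.8% lower in resistant cells. List medians there were -0.05 for BMP and GDF ligands, -0.45 for TGF-beta and activin ligands and 0.20 for antagonists and latency proteins. For receptors, SMADs, brakes and bHLH factors they were 0.02, -0.22, -0.49 and 0.01, against -0.10 for all tested genes. Of 12 other BMP and GDF ligands, 4 were tested. BMP7 rose in parental cells with MAL3-101 by 0.82, from 22.3 and 14.5 TPM to 32.3 and 33.1 TPM, and BMP5 by 0.30. Between the lines with MAL3-101, 1 ligand was higher (BMP6, 0.58) and 1 lower (BMP5, -0.54) in resistant cells. Of 8 genes listed as TGF-beta and activin ligands, 5 were tested. With MAL3-101 in parental cells 3 fell and none passed as higher: MSTN (-0.89, SE 0.24), GDF11 (-0.44) and TGFB1 (-0.36). MSTN encodes the muscle growth inhibitor myostatin, and its DMSO libraries lay apart at 113 and 209 TPM. Of the 5 genes, resistant cells had 3 lower and 1 higher than parental cells with the drug. MSTN went from 84.7 and 80.2 TPM to 12.8 and 10.99 TPM (-2.70), and TGFB3 from 11.3 and 12.5 TPM to 1.40 and 1.78 TPM (-2.32). The 1 higher, INHA, encodes the alpha subunit of inhibin, which is not a TGF-beta or activin ligand. Its level was low, at 1.30 and 1.16 TPM in parental and 3.21 and 3.26 TPM in resistant libraries (0.93).

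Secreted antagonists and latency proteins gave 0 higher, 5 lower and 9 not passed among 14 tested genes with MAL3-101 in parental cells, led by FSTL1 (-1.14) and SOSTDC1 (-0.78). In resistant against parental cells with the drug they split, with 6 higher and 5 lower. LTBP1, which holds latent TGF-beta in the matrix, stood at 163 and 159 TPM in resistant and 59.5 and 56.7 TPM in parental libraries (1.45), while NOG, the BMP antagonist noggin, stood at 8.51 and 8.05 against 20.0 and 19.5 TPM (-1.16). CHRDL1 was listed at 0 in both resistant libraries and at 1.21 and 1.35 TPM in parental ones with MAL3-101. Of 14 tested receptors and co-receptors, 2 rose and 2 fell with MAL3-101 in parental cells, among them ENG, a co-receptor, from 121 and 119 TPM to 57.6 and 58.7 TPM (-1.03), and BAMBI, a decoy receptor (0.62). Resistant cells had 6 higher and 3 lower, with ACVR1C (1.75), RGMA (1.11), a BMP co-receptor, and BAMBI (1.02) differing most.

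The 6 receptor-regulated and common SMADs were all tested. SMAD4 (0.33) and SMAD2 (0.20) rose and SMAD3 (-0.33) fell with MAL3-101 in parental cells. In resistant cells 3 were lower than in parental cells with the drug and 0 higher: SMAD5, from 45.9 and 46.8 TPM to 24.9 and 27.2 TPM (-0.81), SMAD1 (-0.61) and SMAD2 (-0.23). Of 14 genes listed as intracellular brakes, 5 rose and 0 fell in parental cells. USP15 (0.63) and SMURF1 (0.52), a ubiquitin ligase for BMP SMADs, changed most. USP15 encodes an enzyme that removes ubiquitin and is not a brake, but the counts of this list include it. Resistant cells had 8 of the 14 lower and 1 higher. Among the lower were USP15 (-1.01), PMEPA1 (-0.93), which encodes a TGF-beta-induced inhibitor, and SKI (-0.92), a SMAD co-repressor.

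Other BMP-SMAD targets gave 3 higher and 1 lower among 10 tested genes in parental cells with MAL3-101, with a median of 0.24, and 3 higher and 4 lower between the lines, with a median of -0.20. MSX2 (-1.67), DLX2 (-1.52) and HEY1 (-1.47) were lower in resistant cells, and DLX2 rose by 0.90 with MAL3-101 in parental cells. The 3 higher in resistant cells, named after their values were seen, were ATOH8 (1.06), GATA2 (0.45) and MSX1 (0.38). ATOH8, a bHLH factor, stood at 179 and 172 TPM with DMSO, 138 and 145 TPM in parental cells with MAL3-101, and 297 and 294 TPM in resistant cells, and it was the gene that fell in parental cells (-0.31). Other TGF-beta-SMAD targets, many of which also answer to other pathways, gave 7 higher and 1 lower among 13 with MAL3-101 in parental cells. JUNB rose by 1.67 (SE 0.10), while TAGLN fell by 1.12 (SE 0.31), with its DMSO libraries apart at 27.0 and 61.0 TPM. In resistant cells 10 of the 13 were lower than in parental cells with the drug and 2 higher, with a median of -1.91 against -0.10 for all tested genes. Against DMSO 8 were lower and 3 higher, beside 29.7% and 20.9% of all tested genes. The median there was -1.73, against -0.06 for all tested genes. BHLHE40 stood at 6.84 and 14.6 TPM with DMSO, 23.1 and 22.1 TPM in parental cells with MAL3-101 and 2.01 and 1.74 TPM in resistant cells (-3.04 between the lines with MAL3-101), and COL1A1 differed by -2.56 between the lines.

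Of the E proteins, the main partners of ID proteins, and of related bHLH factors, 8 of 12 were tested. With MAL3-101 in parental cells 3 were higher and 2 lower, among them TAL1 (0.79) and TCF12 (0.35), an E protein. Between the lines with the drug 4 were higher and 4 lower in resistant cells: TWIST1 by 1.48 (11.2 and 11.4 TPM against 3.02 and 3.82 TPM), TCF12 by -0.79 and TAL1 by -0.74. The other E proteins, TCF3 and TCF4, named after their values were seen, went the opposite way to TCF12 between the lines, by 0.34 (adjusted p = 0.0015) and 0.39 (adjusted p = 0.0036). TCF3 stood at 117 and 118 TPM with DMSO, 102 and 103 TPM in parental cells with MAL3-101, and 125 and 136 TPM in resistant cells, and its drop with MAL3-101 in parental cells also passed (-0.19, adjusted p = 0.027). TCF4 gave -0.21 there (adjusted p = 0.054). The muscle factors MYOD1 and MYOG, also named after their values were seen, went opposite ways between the lines with MAL3-101. MYOD1 was lower in resistant cells (-0.56, adjusted p = 4.18e-05), and MYOG was just called higher (0.53, adjusted p = 0.049). With MAL3-101 in parental cells MYOD1 fell (-0.18, adjusted p = 0.0119), and MYOG did not pass (0.20, adjusted p = 0.432).

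**Figure D4:**
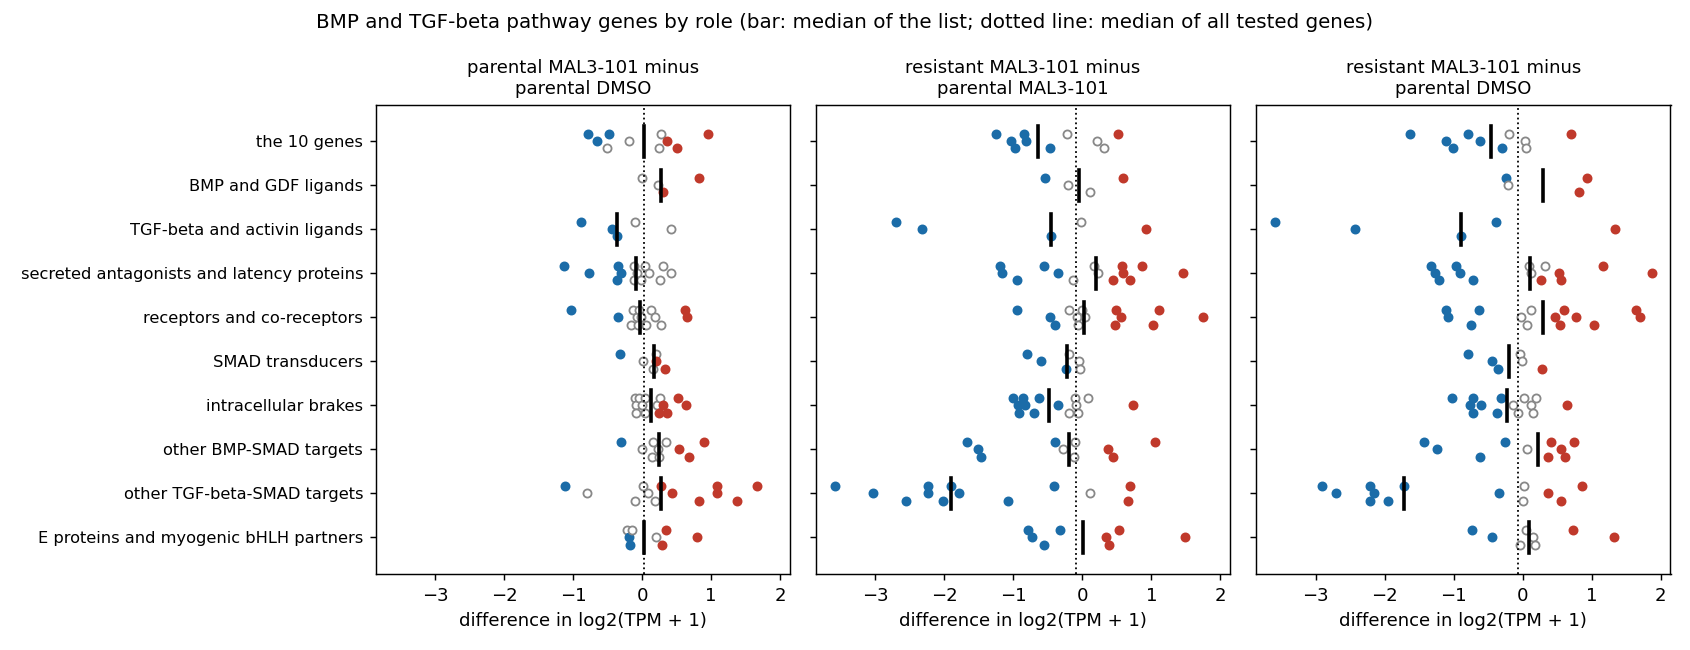
Differences in log2(TPM + 1) of the 10 genes and of 9 pathway lists by role, for 3 comparisons; each point is a tested gene (red higher, blue lower, open not passed), the bar is the list's median and the dotted line the median of all tested genes. The TGF-beta-SMAD targets have medians of -1.91 and -1.73 in the 2 panels with resistant cells, against 0.27 in parental cells with MAL3-101. The list of brakes includes USP15, which is not a brake, and that of TGF-beta and activin ligands includes INHA, an inhibin subunit.

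Among 11498 other genes whose mean reached 5 TPM in some group, those nearest in pattern over the 6 libraries were found by Euclidean distance between centred log2(TPM + 1) values. PGF (distance 0.25), CCDC85B (0.27) and PLAUR (0.32) were nearest to ID1; PGF stood at 222 and 270 TPM with DMSO, 156 and 151 TPM in parental cells with MAL3-101, and 81.4 and 78.6 TPM in resistant cells. RGS3 (0.15), UGCG (0.17) and TRIM56 (0.18) were nearest to ID2, and C7orf43 (0.12), NUDC (0.13) and GALNT2 (0.13) to ID3. GAS5 (0.13), RP9 (0.19) and IRF7 (0.19) were nearest to SMAD7; GAS5, a long non-coding RNA, stood at 337 and 377 TPM, 724 and 765 TPM, and 303.45 and 303.46 TPM in the same order of groups. With 6 libraries in 3 groups, a short distance describes only that the differences between libraries were alike in direction and size.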

How the data were processed

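RNA was sequenced in 6 libraries. Titles gave the groups of the MAL3-101 libraries; for DMSO, whose titles also name the drug, the description was used. The deposited values are TPM per gene name with 2 decimals, 1 column per library, summing to 1000000 apart from rounding. The submitters' processing notes name RSEM, DESeq and hg19, without versions; the aligner, annotation and strand setting were not given in the sources used here. Reads of a gene and of one overlapping it may therefore be mixed.

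Values were taken as log2(TPM + 1) for 15148 genes whose mean reached 1 TPM in some group. The model was limma 3.58.1 (R 4.3.3), with 3 group means over 6 libraries and a mean-variance trend. It had 3 residual and 4.17 prior degrees of freedom and a median SE of 0.105. Benjamini-Hochberg adjustment was made within each comparison. The fit was also run on simulated data with few changed genes and, for each gene, the same spread in every group. These data differ in both, so that run does not bear on the calls here. Named genes were the 10 members and, from each list, called genes among the 3 with the largest change; 1 such gene is not reported here. The members, lists and motifs were chosen with earlier results of these data known. Promoter windows came from RefSeq on GRCh38.p14 by symbol, and all 10 genes matched, with 15 windows. Python 3.11.15 and matplotlib 3.10.9 drew the figures. The 15 alternatives were other pseudocounts (0.1 and 5) and filters (none and 5 TPM), only the libraries compared, a replicate block, median-ratio and upper-quartile scaling, no trend, and each library left out.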

Additional observations from a re-analysis of the deposited data

How the results depend on the processing

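With 1 library left out at a time, the counts of all genes called ran from 3169 to 7684 for parental MAL3-101 against DMSO (1801 to 4513 higher, 1368 to 3458 lower), from 5999 to 10111 for resistant against parental MAL3-101 (2124 to 3963 higher, 3828 to 6148 lower), and from 5001 to 8640 for resistant MAL3-101 against DMSO (1917 to 3931 higher, 2981 to 5069 lower). The lone library left in a group was assumed to vary like the other groups. Of the 10 genes, 4 to 8, 6 to 9 and 6 to 8 were called in these comparisons. In the first, 2 to 4 were higher and 2 to 5 lower, 5 of them without DMSO library A. In the second, 0 to 3 were higher (0 without resistant library A, 3 without DMSO library A or B) and 6 lower throughout; 3 were higher over the compared libraries alone, and 2 after median-ratio or upper-quartile scaling. In the third, 1 to 2 were higher, 2 without DMSO library A, and 5 to 6 lower. Values that had not passed changed sign for resistant MAL3-101 against DMSO: ID4 ran from -0.013 (without resistant library A) to 0.12, SMAD6 from -0.026 (without DMSO library A; -0.014 without resistant library A) to 0.10, and GREM1 from -0.55 (without DMSO library B) to 0.15 (without A). The cause was not tested. Libraries A and B share only letters: deviations of same-letter libraries correlated at between -0.021 and 0.026 across genes, and with a replicate block 5942, 8381 and 7492 genes were called, and 6, 7 and 7 of the 10. TPM keeps no depth, so what depth limits is unknown.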
